A study of Mus musculus with 7 samples.

Results

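The T cell receptor genes and the genes of the CD3 complex were measured in sorted type 2 innate lymphoid cells (ILC2s) of the mouse heart. The members were all rows of the deposited count table whose symbol names a segment or constant gene of the alpha, beta or delta receptor chain (Tra, Trb, Trd) or begins with Tcrg- for the gamma chain, together with Cd3d, Cd3e, Cd3g, Cd247, Cd4, Cd8a, Cd8b1 and Cd5. This gave 270 of the 55335 rows: 189 alpha, 53 beta, 11 delta and 9 gamma genes and the 8 genes named singly. The cells had been sorted as CD45+, lineage-negative and ST2+ cells, ST2 being the receptor for interleukin 33. The naive group consisted of 3 libraries from naive hearts, whose strain, sex and age were not stated in the labels. The allograft group consisted of 4 libraries from Balb/C hearts that had been placed in C57BL/6 (B6) recipients, a model of acute rejection, and harvested on day 7. Each library pooled the cells of 4 to 7 hearts, so that the pools and not single animals were the replicates. The labels named neither the antibodies of the lineage gate nor whether a sorted cell came from the donor or the recipient, and the genotype field was empty for both groups. The labels give a time of 7 days for the naive hearts too, without saying what it counts from.

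A T cell receptor is a pair of chains, alpha with beta or gamma with delta, each built from a variable region and a constant region. The variable region is assembled in developing T cells by joining V and J segments, and in the beta and delta chains also a D segment, of the germline locus. The chains reach the surface only together with the CD3 gamma, delta and epsilon subunits and the zeta chain encoded by Cd247, which carry the signal into the cell. ILC2s are defined by the lack of a rearranged antigen receptor on their surface, but lymphocyte precursors and innate lymphoid cells are known to transcribe receptor loci that have not been productively joined. Transcripts of a constant gene, a D segment or a J segment therefore do not by themselves show a receptor.

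Library totals ran from 29107326 to 53044907 counts, and values are given as CPM, the count of a gene scaled by the total of its library. A gene listed at 0 may have had up to 3 counts, 0.0566 to 0.103 CPM depending on the library. These limits and all intervals cover counting error only, because reads of amplified cDNA without molecular identifiers are not independent molecules. Naive replicate 2 stood apart from the other libraries. Its 15 ILC2 markers, which include Il1rl1 and Gata3, summed to 268 CPM, against 11901 and 9809 CPM in naive replicates 3 and 1 and 9909.6 to 10411 CPM in the allografts. Mitochondrial transcripts made up 26.5% of its counts and 2.04% to 3.11% of those of the other 6 libraries. Its endothelial markers summed to 678 CPM, against 43.6 to 62.8 CPM in the others, and its erythroid markers to 3004 CPM, against 468 to 786 CPM. Results are therefore given with and without it. In these pools, fewer cells of a kind and less RNA per cell cannot be told apart.

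Most receptor genes had no count, and the counts that were found lay in a few constant genes, J segments and single V segments. Of the 270 members, 160 had no count in any library, all of them receptor segments: 135 alpha, 20 beta and 5 delta genes. All 9 gamma genes and all 8 genes named singly had a count somewhere. Among the 110 members with a count, 12 had one in all 7 libraries and 49 in 1 library only. More than 3 counts were found for 30, 15 and 30 members in naive replicates 1 to 3 and for 62, 43, 43 and 46 in allograft replicates 1 to 4. The allografts thus lay above every naive library, and allograft replicate 1 above the other allografts. Random subsampling of each library to the size of the smallest left the order of the groups as it was, with 27, 15 and 26 members in the naive and 53, 43, 43 and 46 in the allograft libraries. At least 1 count, without subsampling, was found for 33, 23 and 32 members in the naive and 70, 47, 51 and 62 in the allograft libraries. Over all genes at that same limit, naive replicates 1 and 3 had 15820 and 13864 and lay below all allografts, which had between 19235 and 21354. Naive replicate 2, with 20254, lay within the range of the allografts. The rise in members was thus shared with all genes, except in naive replicate 2.

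Of the CD3 subunits, Cd3g was abundant and Cd3e was close to absent. Cd3g (ENSMUSG00000002033, chr9:44969572-44980431, minus strand), which encodes the CD3 gamma subunit, had 79.0, 6.00 and 124 CPM across naive replicates 1 to 3, against 219, 196, 182 and 175 CPM across allograft replicates 1 to 4. Every allograft lay above every naive library, and naive replicate 2 was far below the other naive libraries. The means were 69.7 ± 59.6 CPM (SD, n = 3) and 193 ± 19.5 CPM (SD, n = 4). The fit over all genes gave no call for this gene (log2 fold change 1.42, SE 0.752, edgeR adjusted p = 0.618), and without naive replicate 2 its log2 fold change was 0.88 (edgeR adjusted p = 0.151). Cd3e (ENSMUSG00000032093, chr9:44998740-45009627, minus strand), the epsilon subunit that every assembled receptor needs, had 42, 7 and 29 counts in naive replicates 1 to 3 and 13, 9, 19 and 36 counts in allograft replicates 1 to 4. Its exons overlap Gm48719 on the opposite strand. The groups overlapped, and the log2 fold change was -0.0040 (SE 0.964, edgeR adjusted p = 0.999). Per length, in the deposited FPKM, the level of Cd3e was 0.416 to 1.91% of that of Cd3g in the naive and 0.0858 to 0.535% in the allograft libraries.

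Cd3d (ENSMUSG00000032094, chr9:44981786-44987339, plus strand), the delta subunit, had 1.68, 2.48 and 32.5 CPM across naive replicates 1 to 3, against 4.66, 8.64, 3.57 and 7.08 CPM across allograft replicates 1 to 4. Naive replicate 3 held the highest value, and the other naive libraries lay below all allografts. The log2 fold change of Cd3d was -1.13 (SE 1.08, edgeR adjusted p = 0.821), and without naive replicate 3 it was 1.17 (edgeR adjusted p = 0.476). Cd247 (ENSMUSG00000005763, chr1:165788681-165877277, plus strand), the zeta chain that carries most of the signalling motifs of the complex, had 0, 30 and 0 counts in naive replicates 1 to 3 and 585, 249, 301 and 127 counts in allograft replicates 1 to 4. In CPM this was 0.659 in naive replicate 2 and 13.3, 7.68, 7.37 and 4.36 in the 4 allografts, so that the groups did not overlap. The fit over all 7 libraries gave an edgeR adjusted p of 0.548 (unadjusted 0.0689). Without naive replicate 2, whose 30 counts were the only ones in naive hearts, the adjusted p was 0.0384, and the allograft mean was at least 130.4-fold higher than a floor of 3 counts per naive library. That fit called 560 of 18037 genes (3.1%), 542 of them higher in allografts. Exons of Cd247 overlap those of Gm16565 on the same strand and Pou2f1 on the opposite strand, and it was not stated whether counting used the strand.

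Cd3g, Cd3d and Cd3e lie in 1 cluster on chromosome 9, with Cd3g and Cd3d pointing away from each other and their annotated starts 1355 bp apart. The 250 bases before each RefSeq start are shown because these neighbours differed so widely in level. They were taken from RefSeq (GRCm38.p6), whose start of Cd3e lies inside the GENCODE gene given above, so that the window shares 16 bases with it, and are written 5′ to 3′ on the strand of the gene. Capitals mark 3 short motifs searched on both strands: the E box CANNTG, bound by E proteins, AGATAA for GATA factors such as GATA3, and CTTCCT for Ets factors. No 2 different motifs overlapped in these windows.
Cd3g, chr9:44980432-44980681, minus strand: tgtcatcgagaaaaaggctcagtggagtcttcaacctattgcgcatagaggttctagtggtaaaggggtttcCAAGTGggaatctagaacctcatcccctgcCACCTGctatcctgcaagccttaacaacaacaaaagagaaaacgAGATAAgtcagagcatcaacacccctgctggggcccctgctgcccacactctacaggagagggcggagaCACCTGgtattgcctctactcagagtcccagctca
Cd3d, chr9:44981536-44981785, plus strand: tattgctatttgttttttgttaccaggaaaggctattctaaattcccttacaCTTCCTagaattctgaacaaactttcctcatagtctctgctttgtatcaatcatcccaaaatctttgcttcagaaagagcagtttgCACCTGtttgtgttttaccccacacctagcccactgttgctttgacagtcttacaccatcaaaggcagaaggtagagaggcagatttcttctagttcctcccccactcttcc
Cd3e, chr9:45009612-45009861, minus strand: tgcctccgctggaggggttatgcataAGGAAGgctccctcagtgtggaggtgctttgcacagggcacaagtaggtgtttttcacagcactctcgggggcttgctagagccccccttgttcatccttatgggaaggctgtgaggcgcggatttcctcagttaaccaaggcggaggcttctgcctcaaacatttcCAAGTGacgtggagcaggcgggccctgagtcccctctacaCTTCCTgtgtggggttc
The Cd3g window held 3 E boxes and 1 AGATAA and no CTTCCT. The Cd3d window held 1 E box and 1 CTTCCT, and the Cd3e window 1 E box and 2 CTTCCT. Among all 32851 windows of the same length in the table, 66.2% held an E box, 9.99% AGATAA and 29.5% CTTCCT. A match describes letters and is not a measured binding site.

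The coreceptors and Cd5 were at or near 0 in most libraries. Cd4, the coreceptor for class II MHC, had 0, 0 and 505 counts in naive replicates 1 to 3 and 0, 0, 0 and 21 counts in allograft replicates 1 to 4, so that naive replicate 3 carried nearly all of them. Cd8a, the alpha chain of the class I MHC coreceptor, had 0, 0 and 0 counts in naive replicates 1 to 3 and 99, 0, 0 and 13 counts in allograft replicates 1 to 4. Cd8b1, its beta chain, had 0, 0 and 0 counts in naive replicates 1 to 3 and 65, 0, 108 and 12 counts in allograft replicates 1 to 4. Both CD8 chains were at 0 in all naive libraries and in allograft replicate 2, and Cd8a also in allograft replicate 3. Cd8b1 passed the low-count filter (edgeR adjusted p = 0.341, unadjusted 0.0210), and its allograft mean of 1.13 ± 1.18 CPM (SD, n = 4) was at least 17.8-fold higher than a floor of 3 counts per naive library. Cd5, a surface protein of T cells that dampens receptor signalling, had 0, 0 and 0 counts in naive replicates 1 to 3 and 12, 0, 0 and 4 counts in allograft replicates 1 to 4. The filter removed Cd4, Cd8a, Cd5 and the constant gene Tcrg-C3. Exact two-sided permutation tests of their log2 CPM gave p = 0.714, 0.429, 0.429 and 1.00, where 0.0286 is the smallest p that 3 against 4 libraries allow.

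**Figure D1:**
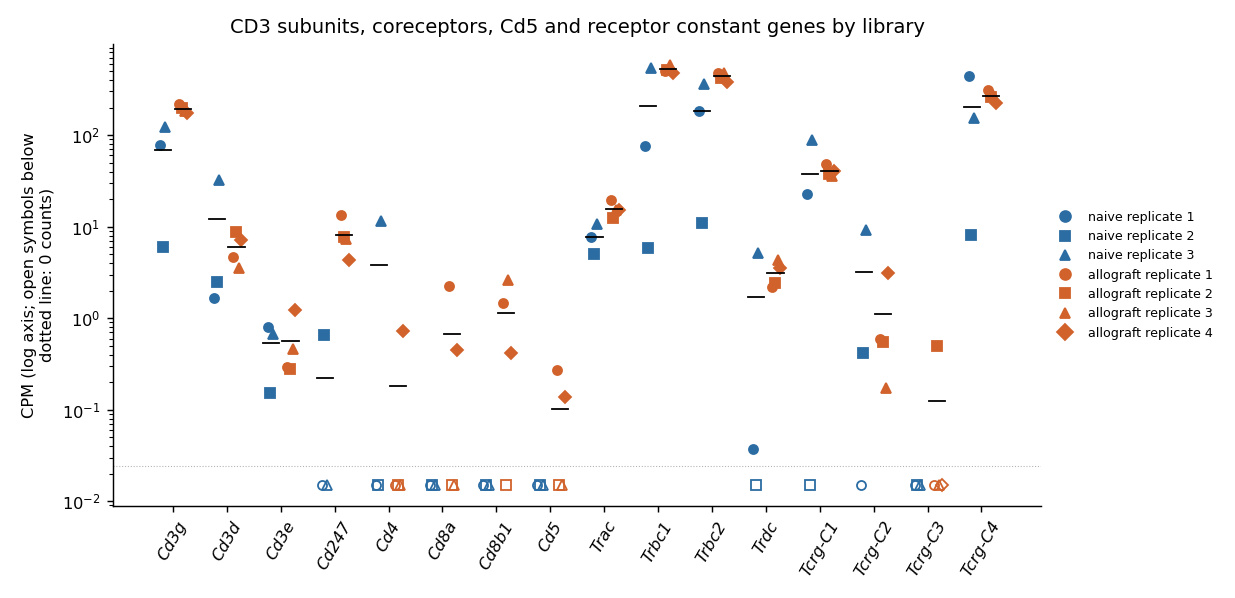
CPM on a log axis of the CD3 subunits, coreceptors, Cd5 and constant genes in each of the 7 libraries, with bars at the group means and open symbols below the dotted line for 0 counts. Cd3g lies between 175 and 219 CPM in the allografts, Cd3e at 1.24 CPM or less, and naive replicate 2 is the lowest library for Cd3g, Trbc1, Trbc2 and Tcrg-C4.

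The beta locus gave the most counts of the 4 receptor loci in 6 of the 7 libraries, almost all in its constant genes; in naive replicate 1 the gamma locus exceeded it, with 469 against 264 CPM. Trbc1 (ENSMUSG00000076490, chr6:41538218-41539881, plus strand) and Trbc2 (ENSMUSG00000076498, chr6:41546730-41548352, plus strand) encode the constant region of the beta chain, are near-identical and could share reads. Trbc1 had 76.5, 5.78 and 543 CPM across naive replicates 1 to 3, against 506, 517, 584 and 481 CPM across allograft replicates 1 to 4. Naive replicate 3 lay within the range of the allografts, and the other naive libraries lay below it. Trbc2 had 182, 11.0 and 363 CPM across naive replicates 1 to 3, against 481, 416, 475 and 383 CPM across allograft replicates 1 to 4, and here the lowest allograft exceeded the highest naive library. The means of Trbc2 were 185 ± 176 CPM (SD, n = 3) and 439 ± 47.3 CPM (SD, n = 4). Neither was called (log2 fold change 1.26, SE 1.11, edgeR adjusted p = 0.797 for Trbc1; log2 fold change 1.19, SE 0.842, edgeR adjusted p = 0.739 for Trbc2), and without naive replicate 2 the log2 fold changes were 0.68 (edgeR adjusted p = 0.654) and 0.63 (edgeR adjusted p = 0.329). Trbc1 supplied 51.3% to 55.7% of the constant counts in the allografts. In naive replicate 1 its share was 29.6% (95% Wilson interval 28.8% to 30.4%) and in naive replicate 3 59.95% (95% Wilson interval 59.5% to 60.4%), so that the allografts fell between these naive libraries. By FPKM, Trbc1 in the allografts was at 558 to 679, against 11.6 to 18.1 for the alpha constant gene Trac and 46.6 to 57.9 for Cd3g.

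All 16 D and J segments of the beta locus had counts, while most V segments had none. Trbd1 and the Trbj1 segments are printed because the values below turn on them, with Trbj2-1, the most counted of the second cluster, and Trbj2-6, an annotated pseudogene, for comparison. They lie in a pair of clusters on chromosome 6, each of 1 D segment and 7 J segments followed by a constant gene. The sequences are the germline segments of the GENCODE M21 annotation (GRCm38), 5′ to 3′ on the plus strand. Capitals in the J segments mark the motif TTNG, any 5 bases, GGN, which covers the conserved phenylalanine and glycine codons of a J segment, searched on the strand shown.
Trbd1, chr6:41533201-41533212: gggacagggggc
Trbj1-1, chr6:41533864-41533911: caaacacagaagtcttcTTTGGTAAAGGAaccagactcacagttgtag
Trbj1-2, chr6:41534001-41534048: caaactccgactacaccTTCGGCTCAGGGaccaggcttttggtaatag
Trbj1-3, chr6:41534323-41534372: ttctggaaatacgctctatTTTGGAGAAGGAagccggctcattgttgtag
Trbj1-4, chr6:41534811-41534861: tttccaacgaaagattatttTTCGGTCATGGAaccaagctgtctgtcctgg
Trbj1-5, chr6:41535084-41535133: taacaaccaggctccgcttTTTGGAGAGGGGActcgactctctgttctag
Trbj1-6, chr6:41535554-41535606: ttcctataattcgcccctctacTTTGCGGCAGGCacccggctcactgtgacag
Trbj1-7, chr6:41535642-41535687: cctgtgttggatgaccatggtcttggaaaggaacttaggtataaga
Trbj2-1, chr6:41542754-41542803: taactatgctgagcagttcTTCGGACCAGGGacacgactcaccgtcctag
Trbj2-6, chr6:41543598-41543645: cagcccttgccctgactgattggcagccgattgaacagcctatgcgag
Over all 14 beta J members, printed or not, the motif was found in 12, and it was found in 63 of the 70 J gene transcripts of the annotation (90%). Trbj1-7 and the annotated pseudogene Trbj2-6 lacked it and nevertheless had counts.

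Trbj1-1, the first J segment after Trbd1, had the most counts of the J segments, with 117, 1 and 793 counts in naive replicates 1 to 3 and 656, 306, 635 and 240 counts in allograft replicates 1 to 4. In CPM these were 2.21, 0.0220 and 18.2 in the naive and 14.9, 9.44, 15.5 and 8.25 in the allograft libraries, with naive replicate 3 above all allografts (log2 fold change 0.77, SE 1.47, edgeR adjusted p = 0.936). Trbj1-2 and Trbj2-1 were likewise highest in naive replicate 3, with 4.70 and 4.22 CPM there and up to 3.28 and 3.75 CPM in the allografts. For the other 5 segments of the first cluster, Trbj1-3 to Trbj1-7, every allograft lay above every naive library, as it did for 12.5% of all genes tested; their difference from the other J segments was not tested. Trbj1-6 had 0, 0 and 4 counts in naive replicates 1 to 3 and 29, 34, 51 and 15 counts in allograft replicates 1 to 4 (log2 fold change 4.62, SE 1.65, edgeR adjusted p = 0.350). Trbj1-5 had 6, 1 and 0 counts in naive replicates 1 to 3 and 30, 21, 32 and 11 counts in allograft replicates 1 to 4 (log2 fold change 3.57, SE 1.31, edgeR adjusted p = 0.372). Trbj1-4 had 2, 0 and 0 counts in naive replicates 1 to 3 and 13, 9, 14 and 10 counts in allograft replicates 1 to 4 and an edgeR adjusted p of 0.295 (unadjusted 0.0111).

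Trbj1-3 and Trbj1-7 had unadjusted p-values of 0.0807 and 0.0587 in the same edgeR fit. All of these J segments were counted at low depth, at most 51 counts in a library. DESeq2 called Trbj1-4, Trbj1-5 and Trbj1-6 (adjusted p = 0.0108, 0.00610 and 0.00336), in a test that called 1224 of 19118 genes (6.4%). Trbj1-3 to Trbj1-7 together made up 1.09% (95% Wilson interval 0.610% to 1.94%) of the Trbj1 counts in naive replicate 3 and 13.3% (95% Wilson interval 8.97% to 19.4%) in naive replicate 1. In the allografts the share was 11.7% to 21.8%, so that naive replicate 1 lay inside their range and naive replicate 3 far below it. Trbj2-7 had 13, 1 and 60 counts in naive replicates 1 to 3 and 28, 17, 14 and 10 counts in allograft replicates 1 to 4. In the second cluster no J segment separated the groups, and 5 of its 6 tested segments had a negative log2 fold change. Their values turned positive without naive replicate 3, which held the highest CPM of all 7 J segments of that cluster. These neighbouring segments can lie in the same transcripts and are not independent of one another.

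**Figure D2:**
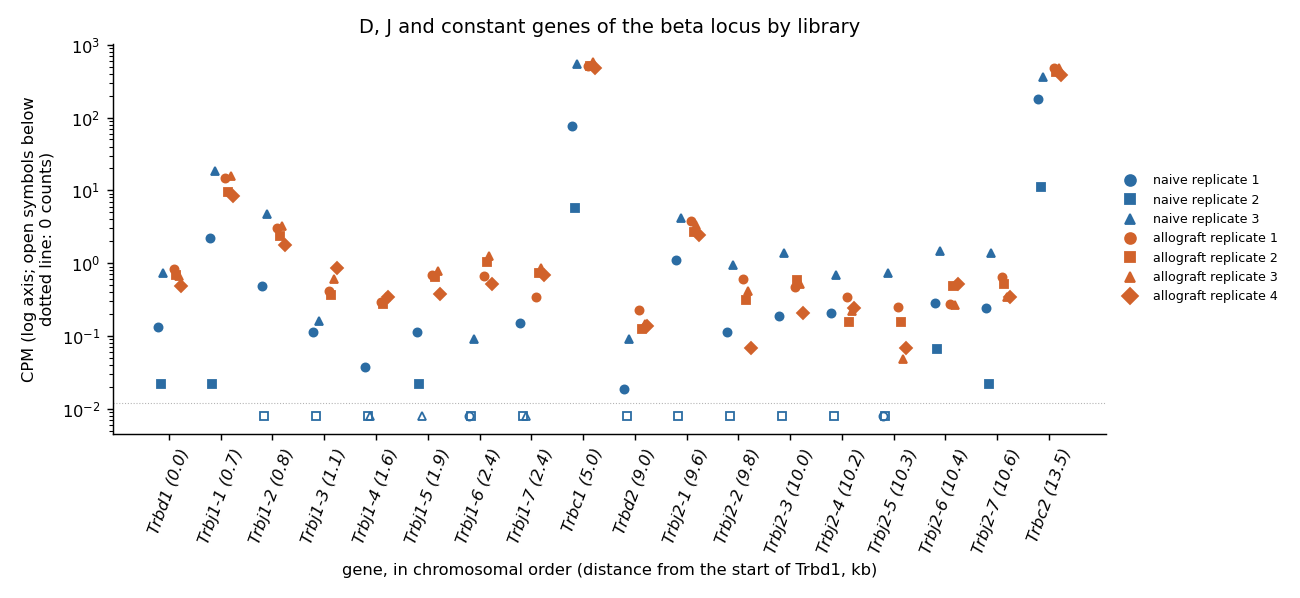
CPM on a log axis of the D, J and constant genes of the beta locus in chromosomal order, with the distance from Trbd1 in kb, for each of the 7 libraries; open symbols below the dotted line are 0 counts. Trbj1-3 to Trbj1-7 are higher in all 4 allografts than in any naive library, whereas naive replicate 3 holds the highest value of Trbj1-1, Trbj1-2 and all Trbj2 segments.

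Trbd1, a 12-base D segment, had 7, 1 and 32 counts in naive replicates 1 to 3 and 37, 22, 27 and 14 counts in allograft replicates 1 to 4 and overlapped between the groups (log2 fold change 1.09, SE 1.14, edgeR adjusted p = 0.842). Trbd2, the D segment of the second cluster, had 1, 0 and 4 counts in naive replicates 1 to 3 and 10, 4, 6 and 4 counts in allograft replicates 1 to 4. V segments were a small part of the beta locus. They made up 0.270% (95% Wilson interval 0.224% to 0.325%) of its counts in naive replicate 3, nearly all from Trbv29 (0, 0 and 110 counts in naive replicates 1 to 3 and 16, 0, 8 and 0 counts in allograft replicates 1 to 4). In naive replicate 1 none of the 35 beta V segments had a count, which allows up to 3 counts against 13721 in the constant genes. In the allografts the V share of the locus was 0.0117% to 0.383%. Trbv13-2 had 0, 12 and 0 counts in naive replicates 1 to 3 and 0, 20, 38 and 0 counts in allograft replicates 1 to 4, and Trbv31, Trbv13-1 and Trbv5 had 25, 26 and 22 counts in allograft replicate 2 but none in allograft replicates 1, 3 and 4. Constant counts exceeded V counts by 23.1-fold in naive replicate 2, by 356-fold in naive replicate 3 and by 254 to 8387-fold in the allografts, where the highest ratio rests on 3 V counts.

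At the alpha locus, Trac (ENSMUSG00000076928, chr14:54220521-54224206, plus strand), the constant gene of the alpha chain, had 7.80, 5.06 and 10.6 CPM across naive replicates 1 to 3, against 19.6, 12.5, 15.1 and 15.05 CPM across allograft replicates 1 to 4. The spread among libraries was small for this gene, naive replicate 2 included, with means of 7.81 ± 2.76 CPM (SD, n = 3) and 15.6 ± 2.97 CPM (SD, n = 4), and every allograft lay above every naive library. The difference was not called (log2 fold change 0.83, SE 0.544, edgeR adjusted p = 0.720), and without naive replicate 2 the log2 fold change was 0.71 (edgeR adjusted p = 0.453). By FPKM, Trac was at 1.03 to 1.53% of the sum of Trbc1 and Trbc2 in the allografts, at 2.28% and 0.902% in naive replicates 1 and 3 and at 22.9% in naive replicate 2. Of the 60 alpha J segments 13 had a count, at most 9 in any library, the highest mean CPM being that of Traj27 (0, 2 and 2 counts in naive replicates 1 to 3 and 0, 0, 0 and 9 counts in allograft replicates 1 to 4). Traj19 had 3, 7 and 3 counts in allograft replicates 1, 3 and 4 and 0 elsewhere, Traj15 had 6 in naive replicate 3 and 1 and 5 in allograft replicates 1 and 4, and Traj45 and Traj46 had 8 each in allograft replicate 3 alone. Of the 128 alpha V segments 40 had a count, and 28 of these had one in a single library.

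Different alpha V segments led in different libraries. Trav3-4 had 0, 150 and 0 counts in naive replicates 1 to 3 and 0, 0, 0 and 14 counts in allograft replicates 1 to 4, and its 150 counts were 92.6% of the alpha V counts of naive replicate 2. Trav6-3 had 98, 0 and 0 counts in naive replicates 1 to 3 and 14, 5, 0 and 9 counts in allograft replicates 1 to 4, and its near copy Trav6d-3 had 24, 0 and 0 counts in naive replicates 1 to 3 and 27, 15, 0 and 4 counts in allograft replicates 1 to 4. Trav16n had 90 counts in allograft replicate 3 and 0 elsewhere, and Trav6d-5 had 25 counts there and 0 elsewhere. The effective number of alpha V segments, the inverse of the summed squared shares, was 2.27 and 1.162 in naive replicates 1 and 2 and 11.9, 3.57, 2.55 and 8.95 in the allografts, while naive replicate 3 had no alpha V count. Near-identical copies carried the same counts in every library, such as Trav6d-7 with Trav6n-7 and Trav11 with Trav11d, so the number of segments with a count may overstate the number of distinct ones. In all, 28 members fell into 10 groups with the same count in every library, although groups with 1 to 5 counts can arise without shared reads. No alpha or beta V segment exceeded 150 counts in a library.

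**Figure D3:**
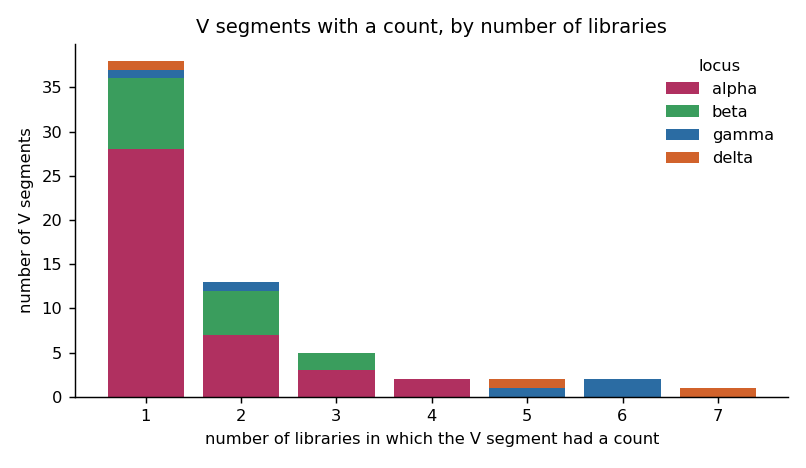
Number of V segments among the members with a count, by the number of libraries in which they had one and by locus. Of 63 such segments, 38 had a count in 1 library, most of them alpha segments, and Trdv4 was the one with counts in all 7.

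The gamma locus resembled the beta locus in that its constant genes held 97.4% to 100% of the counts of the member genes. Tcrg-C4 (ENSMUSG00000076757, chr13:19344558-19352756, plus strand) had 442, 8.18 and 154 CPM across naive replicates 1 to 3, against 309, 259.9, 275 and 224 CPM across allograft replicates 1 to 4, so that naive replicate 1 was the highest and naive replicates 2 and 3 the lowest libraries (log2 fold change 0.39, SE 0.905, edgeR adjusted p = 0.948). Tcrg-C1 (ENSMUSG00000076749, chr13:19214103-19217024, plus strand) had 22.9, 0 and 89.3 CPM across naive replicates 1 to 3, against 48.0, 37.9, 36.1 and 41.1 CPM across allograft replicates 1 to 4, and the allografts again lay between naive replicates 1 and 3 (log2 fold change 0.078, SE 1.55, edgeR adjusted p = 0.996). Tcrg-C2, on the opposite strand of the locus, had 0, 19 and 399 counts in naive replicates 1 to 3 and 26, 18, 7 and 91 counts in allograft replicates 1 to 4 (log2 fold change -1.61, SE 1.97, edgeR adjusted p = 0.872), and Tcrg-C3 had 16 counts in allograft replicate 2 and 0 elsewhere. The gamma constant genes are close relatives and could share reads. Tcrg-C4 supplied 83.5% to 88.3% of the gamma constant counts in the allografts, 95.1% (95% Wilson interval 94.8% to 95.3%) in naive replicate 1 and 61.0% (95% Wilson interval 60.1% to 61.9%) in naive replicate 3.

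Among the gamma V segments, Tcrg-V5 had 118, 0 and 186 counts in naive replicates 1 to 3 and 53, 110, 159 and 37 counts in allograft replicates 1 to 4 and Tcrg-V6 had 119, 0 and 109 counts in naive replicates 1 to 3 and 121, 69, 10 and 65 counts in allograft replicates 1 to 4. Neither separated the groups (log2 fold change 0.13, SE 1.62, edgeR adjusted p = 0.994 for Tcrg-V5; log2 fold change 0.19, SE 1.66, edgeR adjusted p = 0.992 for Tcrg-V6). Tcrg-V4 had 6, 0 and 0 counts in naive replicates 1 to 3 and 20, 50, 10 and 3 counts in allograft replicates 1 to 4 (log2 fold change 3.79, SE 1.77, edgeR adjusted p = 0.540), and all but allograft replicate 4 lay above the naive libraries. Exons of Tcrg-V4 overlap those of Gm31887 on the opposite strand. Tcrg-V7 had 10 and 22 counts in allograft replicates 1 and 4 and 0 elsewhere. In naive replicate 2 none of these gamma V members had a count. Trgv2, a gamma V segment whose symbol does not begin with Tcrg-, had 35 counts there. Of the 6 gamma members tested over all 7 libraries, 5 had a positive and 1 a negative log2 fold change (median 0.16). Without naive replicate 2, 1 was positive and 5 were negative (median -0.44), and 0 were called in either fit.

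The delta locus was the reverse of the others: 1 V segment held nearly all of its counts and the constant gene few. Trdv4 (ENSMUSG00000076867, chr14:54074905-54075515, plus strand), which lies before the delta constant gene, had 35.2, 3.91 and 169.9 CPM across naive replicates 1 to 3, against 142, 138, 170.3 and 83.6 CPM across allograft replicates 1 to 4. Naive replicate 3 and allograft replicate 3 were the highest, and naive replicates 1 and 2 lay below all allografts (log2 fold change 0.87, SE 0.948, edgeR adjusted p = 0.850). Its share of the delta counts was 92.5% to 96.1% in the allografts and 92.6% to 100% in the naive libraries. Trdc (ENSMUSG00000104876, chr14:54142851-54148868, plus strand), the delta constant gene, had 2, 0 and 223 counts in naive replicates 1 to 3 and 97, 78, 178 and 104 counts in allograft replicates 1 to 4. Naive replicate 3 exceeded all allografts and the other naive libraries were at 2 and 0 counts (log2 fold change 0.80, SE 1.91, edgeR adjusted p = 0.949). By FPKM, Trdc was at 0.486 to 0.976 in the allografts, where Trdv4 was at 163 to 334. Trdv2-2 had 146, 0 and 0 counts in naive replicates 1 to 3 and 259, 151, 106 and 87 counts in allograft replicates 1 to 4 (log2 fold change 2.14, SE 2.11, edgeR adjusted p = 0.8289). Exons of Trdc overlap Gm43434 and Trdv5 on the opposite strand. Trdv1 had 13 counts in allograft replicate 1 and 0 elsewhere. Both delta D segments had no count in any library, and Trdj1 and Trdj2 had at most 6.

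**Figure D4:**
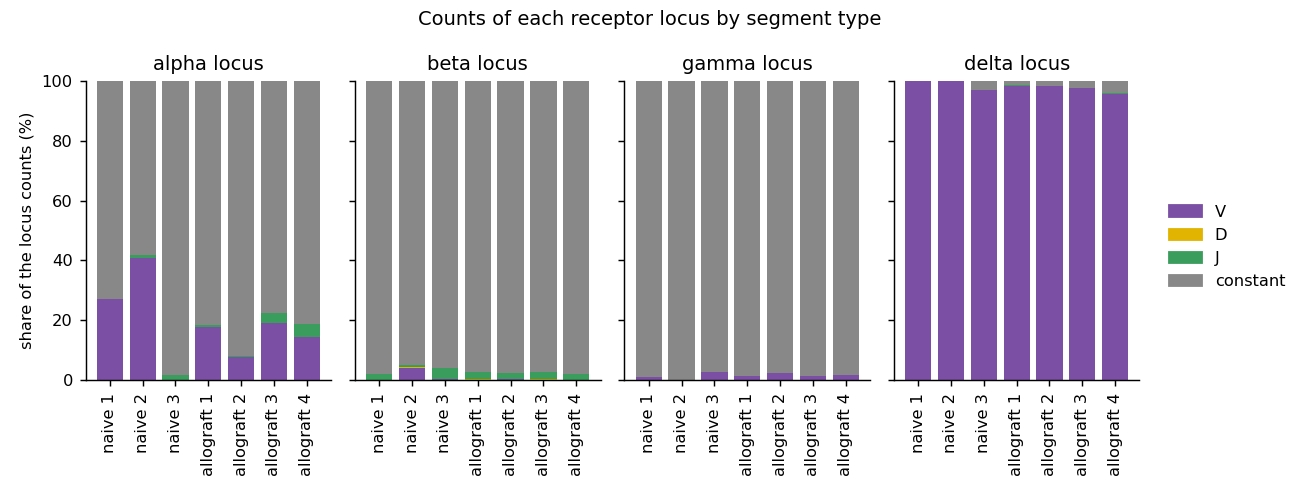
Share of the member counts of each receptor locus that fell on V, D, J and constant genes, for the 7 libraries. Among the members, constant genes hold at least 95.01% of the beta and 97.4% of the gamma counts in every library. V segments hold at least 95.8% of the delta counts. Gamma V and J genes whose symbols do not begin with Tcrg- are not members and are left out, although some of them had counts.

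Of the 270 members, 34 passed the low-count filter, and none differed between allograft and naive libraries at an edgeR adjusted p under 0.05, where 6 of all 17015 genes tested did (0.0353%). The smallest adjusted p among the members was 0.295, for Trbj1-4. At an unadjusted p under 0.05 there were 4 members, all higher in allografts (Cd8b1, Trbj1-4, Trbj1-5 and Trbj1-6), against 1748 of all genes (10.3%), of which 1091 were higher in allografts (6.41% of all). DESeq2 called the same 4 members. Without naive replicate 2, edgeR called 1 of 38 members, Cd247, and 3 had an unadjusted p under 0.05, where 3651 of all genes did (20.2%). The median log2 fold change of the 34 was 0.81, with 25 positive and 9 negative values, and that of all genes was -0.014. Without naive replicate 2 the medians were 0.19 over 38 members and 0.23 over all genes. Every allograft exceeded every naive library for 9 of the 34 and for 2131 of all genes (12.5%): Cd3g, Cd247, Trac, Trbc2 and Trbj1-3 to Trbj1-7. The same 9 separated the groups on a TMM scale, where the share over all genes was 10.5%. No member was lower in every allograft than in every naive library, as 365 of all genes were (2.15%). The filter keeps a rare gene through the group in which it is high, so the 34 do not stand for all members.

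**Figure D5:**
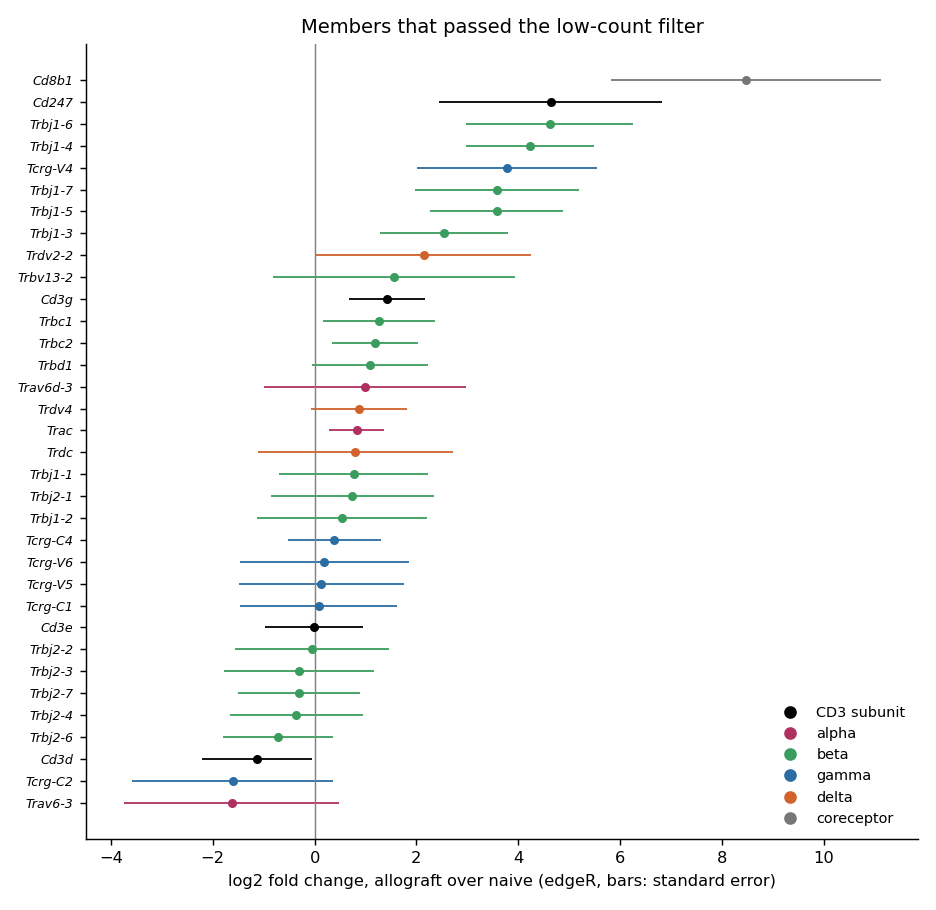
Log2 fold change of allograft over naive with its standard error for the 34 members that passed the low-count filter, coloured by locus. Values for Cd8b1, Cd247 and Trbj1-4 rest on naive libraries at or near 0 and depend on the prior count of the fit; no member passed an adjusted p of 0.05.

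Transcripts of most proteins that signal just inside the receptor were found in both groups, with more than 3 counts for 31 to 32 of 34 genes in each naive library and for all 34 in each allograft. All 34 were tested and 0 passed in either direction, with 3 at an unadjusted p under 0.05 and a median log2 fold change of 0.61 (without naive replicate 2, 0.11). Their summed level was 4556, 276 and 4966 CPM across naive replicates 1 to 3, against 4685 to 5409.9 CPM in the allografts, so that only naive replicate 2 stood out. The smallest p in this list belonged to Sh2d1a, the adaptor SAP, at 0, 0 and 0 CPM across naive replicates 1 to 3, against 1.57, 4.44, 4.97 and 0.825 CPM across allograft replicates 1 to 4 (edgeR adjusted p = 0.144). Txk, a kinase of the Tec family, had 7.99, 7.41 and 35.8 CPM across naive replicates 1 to 3, against 61.0, 81.7, 69.9 and 68.9 CPM across allograft replicates 1 to 4 (log2 fold change 1.90, SE 0.587, edgeR adjusted p = 0.320), and Syk, the kinase related to Zap70, had 1.62, 0.725 and 0 CPM across naive replicates 1 to 3, against 11.7, 14.7, 10.2 and 13.6 CPM across allograft replicates 1 to 4 (edgeR adjusted p = 0.470). Without naive replicate 2, 1 gene of this list passed, Nck1, an adaptor (edgeR adjusted p = 0.0489), as did 1 of the recombination genes described next.

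Of 16 T cell surface and costimulation genes, 0 passed, 2 had an unadjusted p under 0.05, and the median log2 fold change was 1.48; without naive replicate 2 the median was 0.95. Slamf6, a receptor of the SLAM family, had 0, 0 and 0 CPM across naive replicates 1 to 3, against 7.13, 4.999, 0.661 and 4.40 CPM across allograft replicates 1 to 4 (edgeR adjusted p = 0.144). Cd6 had 0, 0 and 0.0459 CPM across naive replicates 1 to 3, against 0.863, 0, 0.979 and 1.07 CPM across allograft replicates 1 to 4 (log2 fold change 5.24, SE 2.10, edgeR adjusted p = 0.438), and the costimulatory receptor Cd28 had 0, 3.10 and 1.03 CPM across naive replicates 1 to 3, against 18.9, 20.6, 19.6 and 18.3 CPM across allograft replicates 1 to 4 (log2 fold change 3.34, SE 1.65, edgeR adjusted p = 0.577). The 11 genes of V(D)J recombination and the pre-TCR included Rag1 and Rag2, the recombinase, and Dntt, which adds bases at the junctions, and these 3 had no count in any library. Ptcra, the surrogate alpha chain, had 5 counts in allograft replicate 3 alone. Of the 7 tested genes of this list 0 passed, 1 had an unadjusted p under 0.05, and the median log2 fold change was -0.26. Xrcc4, a factor of DNA end joining, had 25.0, 23.1 and 42.7 CPM across naive replicates 1 to 3, against 11.0, 8.18, 6.53 and 11.7 CPM across allograft replicates 1 to 4, lower in every allograft than in any naive library (log2 fold change -1.88, SE 0.468, edgeR adjusted p = 0.185). Nhej1, which acts in the same repair pathway, had 0, 2.35 and 0 CPM across naive replicates 1 to 3, against 7.70, 11.9, 5.75 and 9.14 CPM across allograft replicates 1 to 4, so that every allograft lay above every naive library (edgeR adjusted p = 0.760), and it was the recombination gene that passed without naive replicate 2 (edgeR adjusted p = 0.0344). Dclre1c, of that pathway too, had an edgeR adjusted p of 0.778.

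Of 18 transcription factors of the T lineage, 0 passed with or without naive replicate 2, 1 had an unadjusted p under 0.05, and the median log2 fold change was 0.27, with 13 positive and 5 negative values; without naive replicate 2 the median was -0.15, with 6 positive and 12 negative. Tcf7, which encodes TCF-1, a factor that acts in early T cell and ILC development, had 0.943, 0.857 and 4.68 CPM across naive replicates 1 to 3, against 44.4, 21.5, 43.9 and 48.2 CPM across allograft replicates 1 to 4 (log2 fold change 4.06, SE 0.800, edgeR adjusted p = 0.144). The allografts lay above all naive libraries for this gene. Id3 had 2.47, 264 and 0 CPM across naive replicates 1 to 3, against 13.5, 11.2, 13.6 and 9.55 CPM across allograft replicates 1 to 4, with naive replicate 2 far above the rest (log2 fold change -3.46, SE 2.07, edgeR adjusted p = 0.677), and Runx1 had 52.7, 2.40 and 53.6 CPM across naive replicates 1 to 3, against 73.4, 85.2, 74.8 and 72.1 CPM across allograft replicates 1 to 4 (log2 fold change 1.03, SE 0.782, edgeR adjusted p = 0.757).

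Markers of T cell subsets and of other cells were examined beside these values. The 14 T cell markers, most of them members themselves, summed to 579, 54.4 and 1715 CPM across naive replicates 1 to 3, against 1371 to 1586 CPM in the allografts. For 5 of the 14 every allograft lay above every naive library (Cd3g, Cd247, Trac, Trbc2 and Cd28), as for 12.5% of all genes tested. Cd6, Cd8a and Cd8b1 were above the naive libraries in some allografts and at 0 in others. Cd3e and Cd5 were at or near 0 in all 7 libraries, and Cd4 in 6. Of 9 markers of gamma-delta T cells found in the table, more than 3 counts were seen for 4, 5 and 1 in naive replicates 1 to 3 and for 7 to 8 in the allografts, and their summed level of 125 to 175 CPM in the allografts lay inside the naive range of 46.6 to 211 CPM. Maf alone gave 19.7 to 189 CPM in naive and 94.97 to 154 CPM in allograft libraries, and without it the sums were 21.9, 26.9 and 0 CPM across naive replicates 1 to 3, against 30.1, 32.4, 35.4 and 20.3 CPM across the allografts. For 4 of the markers (Cd163l1, 5830411N06Rik, Blk and Il17a) every allograft lay above every naive library, as for 12.5% of all genes tested. Blk was also among the B cell markers. Il1r1 and Sox13 had the higher means in naive hearts, 4.28 and 3.88 CPM, against 0.871 and 0.180 CPM in the allografts. For Sox13 the naive mean rested on naive replicate 2 alone, with 530 counts there and 0 in naive replicates 1 and 3. Its only other counts were 21 in allograft replicate 4. Il1r1 had 501, 155 and 0 counts in naive replicates 1 to 3. Cd163l1, a scavenger receptor of gamma-delta T cells, had 0 counts in the naive libraries and 3.50, 5.09, 2.79 and 1.79 CPM in the allografts (edgeR adjusted p = 0.144, and 0.0437 without naive replicate 2). Of 10 markers of alpha-beta T cell subsets, more than 3 counts were seen for 2 to 3 in naive and 4 to 9 in allograft libraries. Tbx21 had 0 counts in the naive libraries and 7.95, 4.32, 1.74 and 3.13 CPM in the allografts (edgeR adjusted p = 0.144, and 0.0446 without naive replicate 2). It was the 1 gene of this list with every allograft above every naive library. Of the 5 genes tested over all 7 libraries, 4 had a positive and 1 a negative log2 fold change. Foxp3, the factor of regulatory T cells, had 10 and 4 counts in allograft replicates 2 and 4 and 0 elsewhere.

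Markers of NK cells summed to 26.3 to 189.8 CPM in naive and 275 to 380.5 CPM in allograft libraries, with 11 of 12 found in the table. Markers of B cells (10 genes) summed to 11.3 to 120.0 CPM in naive and 102 to 171 CPM in allograft libraries, so that the groups overlapped. The sums of myeloid, mast, endothelial, fibroblast and cardiomyocyte markers overlapped too. Erythroid markers were lower in the allografts, with 776 to 3004 CPM in naive and 468 to 597 CPM in allograft libraries. Without naive replicate 2, 4 of the NK cell and 4 of the B cell markers passed, all higher in allografts, and with it none did. The fit without that library called 3.1% of all genes, 542 of the 560 called being higher in allografts. It also called 2 myeloid, 2 endothelial, 1 fibroblast and 1 mast cell marker, all higher in allografts, and no ILC2, cardiomyocyte or erythroid marker. The NK cell sums did not overlap between the groups, as the CPM of Cd247 and Cd3g did not. The part of these other cells in the values of Cd247, Cd3g, Trac and the receptor segments was not tested.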

How the data were processed

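Counts and FPKM were deposited by the authors as separate tables, each with 55335 Ensembl identifiers. Per the submitters' processing notes, FastQC 0.11.5, STAR 2.5.3a, StringTie 1.3.1c and DESeq2 1.16.1 and the build mm10 were used, in roles not given. The counting tool, use of strand and treatment of reads that match several genes were not given in the sources used here. Full-length cDNA was amplified before library preparation, per the labels' protocols. The deposited counts were whole numbers and entered edgeR 4.0.16 (R 4.3.3, limma 3.58.1): TMM normalization, filterByExpr, a quasi-likelihood fit without covariates over all 7 libraries and Benjamini-Hochberg adjustment over 17015 genes at 0.05. The fit was tested on simulated data with the same spread for all genes in all libraries, which did not imitate a library as different as naive replicate 2. The deposited FPKM served only to compare levels between genes. Titles of the samples gave the groups and replicate numbers, and 0 columns were left over. Positions come from GENCODE M21 (GRCm38, the assembly also called mm10), which held all 270 members.

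Genes were named by rule: the CD3, coreceptor, Cd5 and constant genes, up to 5 V, D and J segments per locus with the highest mean CPM, and in related lists up to 3 genes with the smallest p. Trbj1-3, Trbj1-4, Trbj1-5, Trbj1-7, Trbj2-2 to Trbj2-6, Trav6d-7, Trav6n-7, Trav11 and Trav11d were named after their values were seen, as were Rag1, Rag2, Dntt, Ptcra, Foxp3, Tbx21, Nck1 and the markers of other cells. Members and lists were chosen with earlier results of these data known. The alternatives were DESeq2 1.42.0, its size factors in edgeR, total counts, no filter, a mean of at least 50 counts, a replicate block, equal totals, no mitochondrial genes, summed V subgroups and leaving out each library. The TMM scale for separation, the marker sum without Maf and the alternatives for related lists were added after seeing the data. Exact tests used log2 CPM with a prior count of 2.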

Additional observations from a re-analysis of the deposited data

Results flagged for a closer look

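In the 4 allografts, 58 values (the named members and 11 measures per library) were examined for 1 library standing far from the other 3, and 16 did so. The nominal rate of the rule, about 1 in 20, does not apply to genes counted in 1 allograft alone, because the rule always flags them. The number of flags is therefore not a measure of excess. Most of the 16 concern genes or segments with few counts, and no cause was tested. Allograft replicate 1 alone of the allografts had counts of Trdv1 (0.295 CPM). Allograft replicate 2 alone of the allografts had counts of Tcrg-C3 (0.494 CPM), Trbv31 (0.771 CPM), Trbv13-1 (0.802 CPM) and Trbv5 (0.679 CPM). Allograft replicate 3 alone of the allografts had counts of Traj45 (0.196 CPM), Traj46 (0.196 CPM), Trav16n (2.20 CPM) and Trav6d-5 (0.612 CPM). Allograft replicate 4 alone of the allografts had counts of Cd4 (0.722 CPM), Traj27 (0.309 CPM) and Trav3-4 (0.481 CPM). Tcrg-C2 was at 3.13 CPM in allograft replicate 4 and at 0.171 to 0.591 CPM in the other allografts. Traj15 was at 0.172 CPM in allograft replicate 4 and at 0 to 0.0227 CPM in the other allografts. Allograft replicate 1 had more than 3 counts for 62 members, against 43 to 46 in the other allografts. Trbc1 supplied 51.3% of the beta constant counts in allograft replicate 1 and 55.2% to 55.7% in the others.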

How the results depend on the processing

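Over the 16 alternatives, no member passed except 1 without naive replicate 2 (Cd247) and 4 with DESeq2 (Trbj1-4, Trbj1-5, Trbj1-6 and Cd8b1). Among the 16 CD3, coreceptor, Cd5 and constant genes both settings gave 1. The count over all genes was 1224 with DESeq2 and ran from 0 to 560 when 1 library was left out: it was 107, 560 and 7 when naive replicates 1, 2 and 3 were left out in turn, and 0 when any 1 allograft was, where edgeR gave 848 to 1074 genes at an unadjusted p under 0.05. Leaving out 1 library gave 0 to 1 members, 0 to 1 of the CD3, coreceptor and constant genes and 0 to 3 genes of the related lists, which had 4 calls with DESeq2. With a replicate block the count over all genes was 0 (252 at an unadjusted p under 0.05) and no member passed. The numbers only name the libraries, since same-numbered deviations correlated at -0.020 to 0.036, and the block therefore carries no pairing. The mean number of segments detected in allografts fell from 42.5 to 29.25 with a limit of over 10 counts, which by construction admits fewer. Leaving out 1 naive library moved the mean summed level of naive hearts from 408 to between 141 and 604 CPM for beta, from 246 to between 134 and 364 CPM for gamma and from 72.3 to between 20.9 and 107 CPM for delta; the lowest came without naive replicate 3 for beta and delta and without naive replicate 1 for gamma, and the highest without naive replicate 2 for all 3. Of 473 single-gene values, 433 kept their direction and side of the threshold and 35, of 14 genes, changed direction; none of those 14 was called, and the cause was not tested. With the block the log2 fold change was 0.085 for Cd3d, 0.35 for Trav6-3, 1.08 for Trbj2-7, 1.57 for Trbj2-3, 2.07 for Trbj2-2 and 0.82 for Trbj2-4. By total counts it was 0.080 for Cd3e and 0.0078 for Trbj2-2, and for Tcrg-C1 it was -0.033 with DESeq2 size factors and -0.061 with DESeq2. Leaving out 1 library gave -1.66 to 1.17 for Cd3d, -0.72 to 0.30 for Cd3e, -0.19 to 1.63 for Tcrg-C4, -0.52 to 1.84 for Tcrg-C1, -2.94 to 1.86 for Tcrg-C2, -2.24 to 5.86 for Trav6-3, -0.057 to 3.39 for Trbj1-2, -0.87 to 1.71 for Trbj2-7, -0.47 to 1.13 for Tcrg-V5, -0.41 to 0.72 for Tcrg-V6, -0.89 to 2.18 for Trbj2-3, -1.24 to 1.02 for Trbj2-6, -0.64 to 2.54 for Trbj2-2 and -0.95 to 1.17 for Trbj2-4. The median of all genes moved from -0.014 to -0.20 with DESeq2 size factors, 0.18 by total counts, 0.23 without naive replicate 2 and 0.55 with the block. Depth limits the V and J segments, whose counts were mostly low.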

Other observations

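The gamma locus holds 6 further genes whose symbols in the table do not begin with Tcrg-, and their values were looked at after those of the members. Gm16602, described in the table as gamma variable segment 1 and annotated as Tcrg-V1, had 0, 0 and 0 counts in naive replicates 1 to 3 and 271, 237, 177 and 193 counts in allograft replicates 1 to 4. Trgv2 had 0, 35 and 42 counts in naive replicates 1 to 3 and 208, 298, 99 and 78 counts in allograft replicates 1 to 4. For both segments every allograft lay above every naive library, as for 12.5% of all genes tested. Trgj4, the J segment of the Tcrg-C4 cluster, had 154, 3 and 78 counts in naive replicates 1 to 3 and 86, 35, 59 and 31 counts in allograft replicates 1 to 4, and Trgj1 had 4, 0 and 15 counts in naive replicates 1 to 3 and 4, 4, 21 and 5 counts in allograft replicates 1 to 4. Trgj2 and Trgj3 had no count in any library. In naive replicate 1 both V segments were at 0, while the members Tcrg-V5 and Tcrg-V6 had 118 and 119 counts.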
